A study of Mus musculus with 8 samples.

Results

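The genes described here encode secreted proteins that carry lipids or set the activity of lipases. The set has 7 members, namely the lipase Lpl, the angiopoietin-like factors Angptl4, Angptl2 and Angptl7, the lipid carriers Apod and Apoe, and the transfer protein Pltp. They were found by the gene symbol of their probes, and each was read from its brightest probe with a detection p-value under 0.05 on at least 2 of the 8 arrays. Of the 7 members, 6 had such a probe, out of 9430 named genes measured on these arrays. Angptl2 has no probe under that symbol in the annotation used and was not analysed here. Angptl4, Angptl7, Apod and Apoe were chosen by their signals on these same arrays, where they differed strongly between groups, so their values are a description and were not tested. Lpl and Pltp were tested.

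The cells were mouse embryonic fibroblasts (MEFs) of C57BL/6 background, taken at embryonic day 13.5 and measured on Illumina bead arrays, on which short probes fixed to beads read the RNA. WT clones 1 and 16 were compared with E2F3 L430Q clones 2 and 4. L430Q is a knock-in substitution in the transcription factor E2F3 that impairs its binding to the retinoblastoma protein, and the study's methods describe homozygous embryos and WT littermates from heterozygous parents, with the selection cassette removed by a Mox2Cre cross. Which of the study's ES cell lines each clone came from is not given in the sources used here. Every clone was measured once proliferating in DMEM with 10% FBS and once starved, in DMEM with 0% FBS for 72 h. Each of the 4 groups thus had 2 arrays. The absence of serum is taken from the sample labels, while the paper's methods describe a low level of FBS for the starvation in its BrdU assay. The number of arrays limits the precision, and any p-value covers no more than the scatter among these 4 clones.

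Lipoprotein lipase splits the triglycerides carried in lipoprotein particles and so hands fatty acids to the tissue. Angptl4 inhibits it and is known as a factor induced by fasting, by hypoxia and by fatty acids through PPAR receptors. Apolipoprotein E takes lipid into particles that lipoprotein receptors recognise, apolipoprotein D is a lipocalin that binds arachidonic acid and other small lipids, and the phospholipid transfer protein moves phospholipid between particles. Angptl7 is a secreted relative of Angptl4 best known from the eye, and it is not an established lipase inhibitor.

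The array of proliferating E2F3 L430Q clone 2 stood apart from the rest, where 684 features differed over 2-fold from the average of the remaining proliferating arrays, while those had 103 to 220. Probes detected numbered 12141 to 12420 per array, with median signals of 108.4 to 127.3. Of 13 fibroblast markers, 12 or 13 were detected on every array. Markers of other cells were not all absent: of 16 macrophage markers 6 to 13 were detected, with Ptprc and Itgam on none, and of 10 adipocyte markers 2 to 5, with Adipoq, Fabp4, Plin1, Cidec and Retn on none. Of 7 hepatocyte markers 1 or 2 were detected on each array, with Alb, Afp, Ttr, Apoa1 and Ahsg on none. E2f3 itself had a log2 difference, E2F3 L430Q minus WT, of -0.35 in proliferating and -0.52 in starved cells, but its probe cannot tell the substitution and does not check the genotype labels.

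The sequences before the start sites are shown for the genes whose patterns the results turn on: Apod and Pltp, which were higher after starvation in all 4 clones, Angptl7, which was lower in all 4, and Apoe, whose genotype difference had opposite signs in the 2 conditions. Each is the 250 bases before a start listed by RefSeq, on the minus strand of build GRCm38.p6, at chr16:31314809-31315058 for Apod, chr2:164857709-164857958 for Pltp, chr4:148500463-148500712 for Angptl7 and chr7:19698622-19698871 for the second of 3 listed Apoe starts. Capitals mark matches on either strand to a TATA box (TATAAA), a GC box (GGGCGG) or a loose E2F pattern (TTTNNCGC, with N any base). They also mark a forkhead site (GTAAACA), a nuclear receptor half-site (AGGTCA) or a CArG box.
Apod: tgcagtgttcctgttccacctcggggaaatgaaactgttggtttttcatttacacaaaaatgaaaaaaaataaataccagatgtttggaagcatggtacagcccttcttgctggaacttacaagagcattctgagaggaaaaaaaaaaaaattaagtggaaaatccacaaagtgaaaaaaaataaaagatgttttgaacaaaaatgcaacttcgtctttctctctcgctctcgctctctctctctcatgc
Pltp: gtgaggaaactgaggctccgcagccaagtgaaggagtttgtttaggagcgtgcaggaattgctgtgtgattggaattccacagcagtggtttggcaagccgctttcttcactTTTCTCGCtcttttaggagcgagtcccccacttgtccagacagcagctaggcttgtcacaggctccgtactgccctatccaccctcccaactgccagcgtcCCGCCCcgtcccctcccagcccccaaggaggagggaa
Angptl7: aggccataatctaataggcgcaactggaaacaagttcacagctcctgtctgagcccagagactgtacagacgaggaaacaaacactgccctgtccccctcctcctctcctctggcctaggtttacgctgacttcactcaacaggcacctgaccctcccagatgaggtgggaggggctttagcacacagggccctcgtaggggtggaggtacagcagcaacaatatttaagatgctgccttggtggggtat
Apoe: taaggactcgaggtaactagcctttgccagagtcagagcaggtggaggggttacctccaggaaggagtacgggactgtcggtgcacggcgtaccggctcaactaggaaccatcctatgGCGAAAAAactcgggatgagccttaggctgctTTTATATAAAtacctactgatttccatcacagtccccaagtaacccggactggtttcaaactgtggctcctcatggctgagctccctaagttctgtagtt

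The Pltp window held a match to the loose E2F letters from 138 to 131 bases before the start. A GC box match lay from 37 to 32 bases before it. The E2F letters leave the middle bases free, which were CT in Pltp and TT in Apoe, so a match need not be an E2F site. Among all 32851 windows of this length in the table, 4.28% held the E2F letters and 32.7% the GC box. The Apoe window also held the E2F letters, from 132 to 125 bases before the start, and a pair of overlapping TATA box matches between 100 and 91 bases before it, where 12.4% of all windows held TATAAA. Of the 3 Apoe windows searched, only that shown held a match, while the shares given count single windows. The windows of the other listed Apoe starts held no match to the 6 motifs. Neither did those of Apod and Angptl7, although 3.17% of all windows held the forkhead site, 14.0% the nuclear receptor half-site and 1.47% a CArG box. The Apod window held stretches of alternating C and T near its end. It had 36.4% G and C, against a median of 52.4%, and only 6.24% of windows had less. These are matches of letters, and no binding was measured. The promoters of 5 of the 7 members were in the table.

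**Figure D1:**
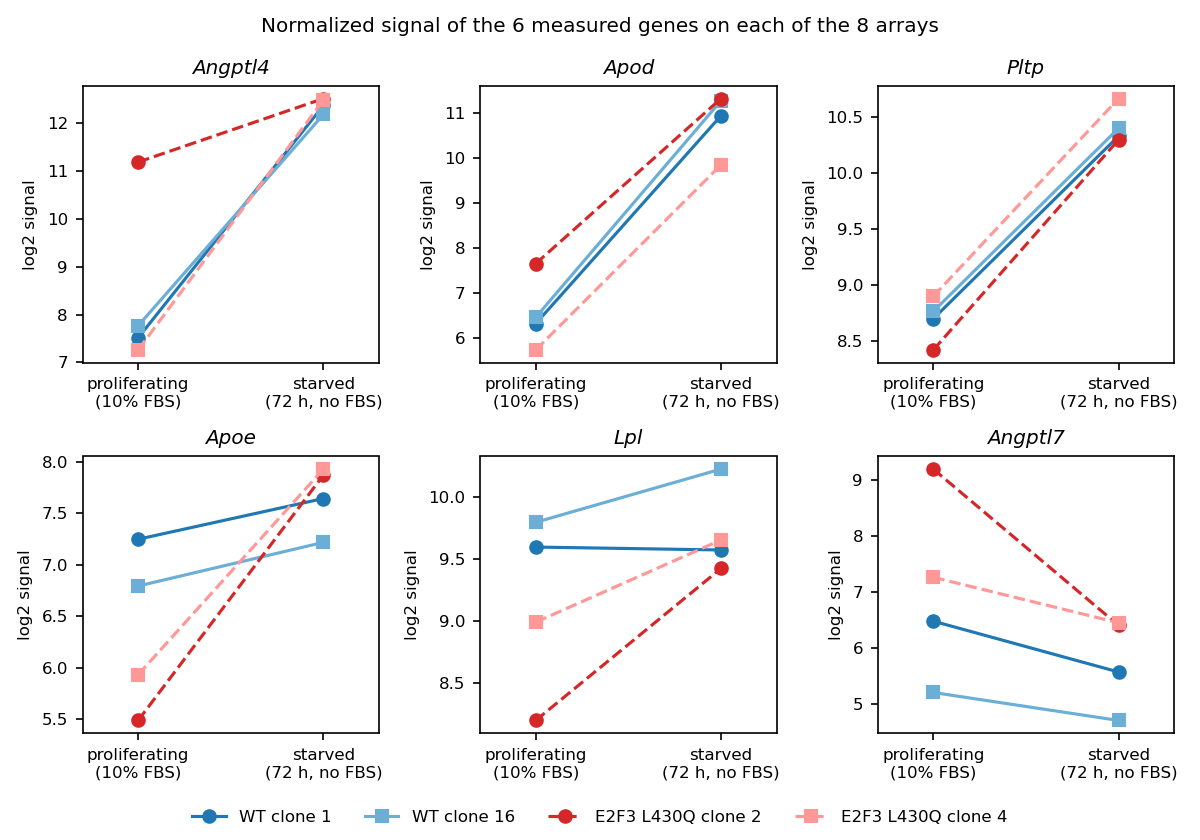
The 6 panels plot the log2 signal of each gene on the y axis for proliferating and starved cells on the x axis, with a line joining the 2 arrays of a clone (blue and solid for WT, red and dashed for E2F3 L430Q; y axes differ between panels). Angptl4, Apod and Pltp lay higher on all starved arrays, and proliferating E2F3 L430Q clone 2 was the only proliferating array with Angptl4 above 11.

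The first comparison asked which members differed between starved and proliferating cells of the same clones. Angptl4, Apod and Pltp were higher on every starved array than on any proliferating array, and Angptl7 was lower after starvation in each clone. Apoe was higher in each clone, by little in WT and by 3.99- to 5.21-fold in E2F3 L430Q. Lpl was higher in 3 of the 4 clones. Over all 10214 features, limma called 22.4% changed at an adjusted p under 0.05, 11.0% higher and 11.5% lower, and 15.0% lay above without overlap of the groups. Of the tested members, Pltp rose, and with every array kept Lpl did not pass without the clone as a block.

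Angptl4, the inhibitor of lipoprotein lipase, was measured in proliferating cells at log2 signals of 7.51 (WT clone 1), 7.77 (WT clone 16), 11.19 (E2F3 L430Q clone 2) and 7.26 (E2F3 L430Q clone 4). After starvation it was at 12.37, 12.18, 12.52 and 12.49 in the same order. All starved arrays lay within a narrow band above the proliferating ones, and among the proliferating arrays only E2F3 L430Q clone 2 came near it. Starved over proliferating, the signal was 29.0-fold in WT clone 1, 21.4-fold in WT clone 16 and 37.4-fold in E2F3 L430Q clone 4, against 2.51-fold in E2F3 L430Q clone 2. The mean log2 difference of 3.96 (standard error 0.74) ranked 8 among 10214 features. It was 4.94 without the proliferating array of clone 2.

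Apod, the arachidonic acid binding lipocalin, gave log2 signals of 6.31 and 6.45 in proliferating WT and of 7.65 and 5.73 in proliferating E2F3 L430Q cells. The starved arrays were at 10.93 and 11.26 in WT and at 11.31 and 9.84 in E2F3 L430Q. The starved and proliferating arrays were apart in every clone, and in both conditions E2F3 L430Q clone 2 was the highest array and clone 4 the lowest. Starvation gave 24.5- and 28.0-fold higher signals in WT clones 1 and 16 and 12.7- and 17.2-fold higher signals in E2F3 L430Q clones 2 and 4. The mean log2 difference was 4.30 (standard error 0.46), rank 6 of all features, and 3.33 with no background correction.

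Pltp, which transfers phospholipid between lipoprotein particles, was the steadiest member. Its log2 signals were 8.70 and 8.76 in proliferating WT and 8.42 and 8.90 in proliferating E2F3 L430Q cells, and 10.33 and 10.40 in starved WT and 10.29 and 10.66 in starved E2F3 L430Q cells. The conditions did not overlap, and the 4 clones differed from each other by far less than the conditions did. Pltp rose 3.10- and 3.11-fold in WT clones 1 and 16 and 3.67- and 3.40-fold in E2F3 L430Q clones 2 and 4. The mean log2 difference was 1.73 (standard error 0.15, limma, adjusted p = 0.00101), higher in 4 of 4 clones. A second, dimmer Pltp probe was higher by 1.72, 1.38, 1.99 and 2.16 in WT clones 1 and 16 and E2F3 L430Q clones 2 and 4. The gene overlaps Ctsa, a lysosomal carboxypeptidase, which was at -0.59 (adjusted p = 0.0707), the opposite sign.

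Apoe gave log2 signals of 7.25 and 6.79 in proliferating WT and of 5.49 and 5.93 in proliferating E2F3 L430Q cells. In the starved cells it was at 7.64 and 7.22 in WT and 7.87 and 7.93 in E2F3 L430Q. The proliferating E2F3 L430Q arrays were the lowest of the 8 and the starved E2F3 L430Q arrays the highest, with the WT arrays between. Starved over proliferating, the signal was 1.31- and 1.34-fold in the WT clones and 5.21- and 3.99-fold in the E2F3 L430Q clones 2 and 4.

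Lpl, the lipase, gave log2 signals of 9.60 and 9.80 in proliferating WT and 8.20 and 8.99 in proliferating E2F3 L430Q cells, and of 9.58 and 10.23 in starved WT and 9.43 and 9.66 in starved E2F3 L430Q cells. The conditions overlapped, and the lowest values were those of the proliferating E2F3 L430Q clones. Starved minus proliferating it was at -0.02 in WT clone 1, 0.43 in WT clone 16, 1.23 in E2F3 L430Q clone 2 and 0.66 in clone 4. The mean log2 difference of 0.57 (standard error 0.22) had an adjusted p = 0.104 in limma, and an adjusted p = 0.0477 with the clone as a block, which pairs the arrays of a clone. Adipocytes are a main source of Lpl, and the summed signal of the 10 adipocyte markers ran from 509 to 514 in proliferating WT, 258 to 456 in proliferating E2F3 L430Q, 387 to 446 in starved WT and 416 to 454 in starved E2F3 L430Q cells. Of these markers, Adipoq, Fabp4, Plin1, Cidec and Retn were detected on no array. The lowest sum was that of proliferating E2F3 L430Q clone 2. There Aoc3 was at 5.46 and Pparg at 5.19, against 7.81 and 6.61 in WT clone 1, so a few genes can set the sum. The part of adipocytes in the Lpl values was not tested.

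Angptl7 gave log2 signals of 6.48 and 5.21 in proliferating WT and 9.19 and 7.26 in proliferating E2F3 L430Q cells. After starvation it was at 5.58 and 4.71 in WT, the latter not above background, and at 6.41 and 6.45 in E2F3 L430Q. It was lower after starvation in all 4 clones, by 1.87-fold in WT clone 1, 6.91-fold in E2F3 L430Q clone 2 and 1.75-fold in clone 4, with no fold given for WT clone 16, and the groups overlapped. Over all features, 23.7% were lower in all 4 clones and 23.8% higher. The mean log2 difference was -1.25 (standard error 0.47), and -0.77 without the proliferating array of clone 2. The gene lies within Mtor, whose probe was at -0.08 (adjusted p = 0.752).

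**Figure D2:**
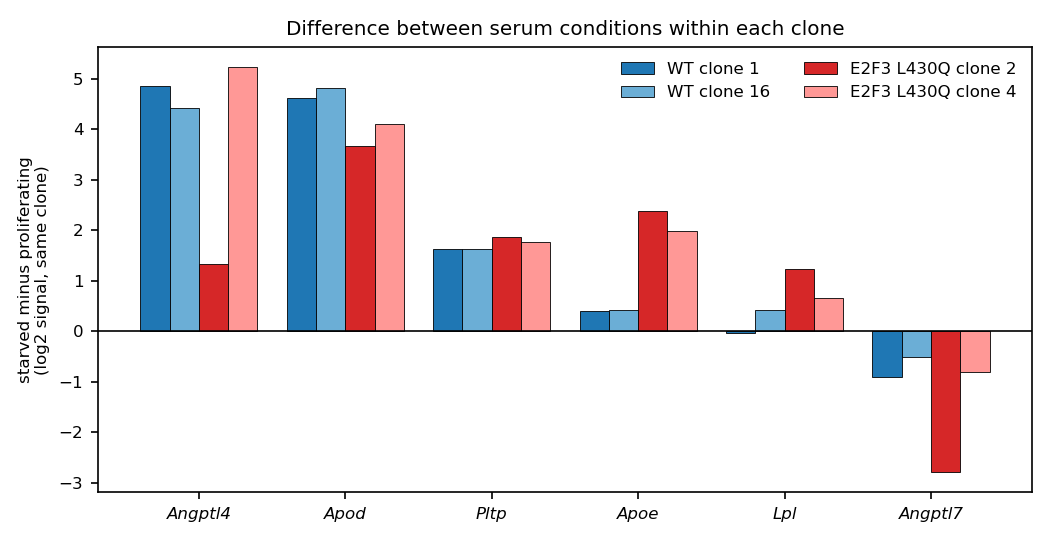
The bars give, for each gene on the x axis, the log2 signal of the starved minus that of the proliferating array of the same clone (y axis), 1 bar per clone. Apod and Pltp had bars of like height in the 4 clones, Angptl4 was at 1.33 in E2F3 L430Q clone 2 against 4.42 to 5.23 in the other clones, and Apoe bars were taller in the E2F3 L430Q clones.

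The second comparison set E2F3 L430Q against WT MEFs within each condition. In proliferating cells Angptl7 lay higher and Apoe and Lpl lower in both E2F3 L430Q clones than in either WT clone, while Angptl4, Apod and the brighter Pltp probe had the 2 E2F3 L430Q clones on opposite sides of WT. In starved cells Angptl7, Angptl4 and Apoe lay higher in both E2F3 L430Q clones. No adjusted p passed for a tested member. Over all features limma called 0 in either condition. At an unadjusted p under 0.05 it counted 288 features (2.82%) in proliferating and 224 (2.19%) in starved cells, and the methods' t-test 215 and 554, of which 0 and 1 remained after Benjamini-Hochberg adjustment. Groups without overlap were found above for 9.54% and below for 12.3% of features in proliferating cells, and above for 17.0% and below for 16.9% in starved cells. For groups of 2 and 2 clones, 0.333 is the smallest two-sided p that exact permutation allows.

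Angptl7 was the only member higher without overlap in both conditions, as 2.18% of all features were. In proliferating cells clone 2 was 10.2-fold and clone 4 was 2.67-fold above the WT mean. In starved cells, where only 1 of the 2 WT arrays was above background, the E2F3 L430Q clones lay close together, at log2 signals 0.83 and 0.88 above the higher WT clone. The log2 difference was 2.38 (standard error 0.66) in proliferating cells, rank 11 from the top, and 1.42 without the clone 2 array. In starved cells it was 1.29 (standard error 0.66), and 0.47 with no background correction. Mtor, within which it lies, was at 0.17 and 0.02 in the same comparisons.

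Angptl4 was 11.7-fold above the WT mean in proliferating clone 2 and 1.30-fold below it in clone 4. Its mean log2 difference of 1.58 (standard error 1.04) turned to -0.38 without the clone 2 array. In starved cells both E2F3 L430Q clones were above WT, by 1.18- and 1.16-fold. Hypoxia is a known inducer of Angptl4, and the hypoxia list moved with the same array. Of its 22 measured genes 21 lay above the WT mean in proliferating clone 2, with a median of 1.24, against 9 in clone 4, with a median of -0.05. In starved cells the medians were 0.04 and -0.09 for clones 2 and 4. The part of these genes, or of what sets clone 2 apart, in the Angptl4 values was not tested.

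Apoe was 2.89-fold below the WT mean in proliferating clone 2 and 2.13-fold below it in clone 4. In starved cells the same clones were 1.36- and 1.41-fold above it. The log2 differences were -1.31 (standard error 0.24) and 0.47 (standard error 0.24). With no background correction the former was -0.62, and with normexp and an offset of 50 it was -0.84. Groups that lay below in proliferating and above in starved cells were found for 1.41% of all features. Apoe is strongly expressed by macrophages. The 13 macrophage markers past the filter had a median log2 difference of -1.03 in proliferating cells, beside -0.03 over all features, with 7 lower at an unadjusted p under 0.05, where 1.69% of all features were, and of -0.82 in starved cells. The summed signal of the 16 markers was 7120 and 3360 in proliferating WT clones 1 and 16, 5217 and 1052 in proliferating E2F3 L430Q clones 2 and 4, 4510 and 4559 in starved WT and 1575 and 3548 in starved E2F3 L430Q cells. Of the 13 markers, 9 lay below the WT mean in proliferating clone 2, with a median of -0.69, and 13 in clone 4, with a median of -2.14. In starved cells 10 and 12 lay below it, with medians of -1.43 and -0.27. The part of macrophages in the Apoe values was not tested. In bulk RNA, fewer cells of a type and less RNA per cell cannot be told apart.

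Lpl was 2.82-fold below the WT mean in proliferating clone 2 and 1.63-fold below it in clone 4, a log2 difference of -1.10 (standard error 0.31). Its unadjusted p = 0.00885 gave an adjusted p = 0.999 in limma, lower in 2 of 2 clones. Without the proliferating array of E2F3 L430Q clone 4 the difference was -1.50 (adjusted p = 0.0307), a fit in which the single remaining array borrowed its spread from the other groups and which called 408 features in all. Without the array of clone 2 it was -0.71 (adjusted p = 0.999). In starved cells Lpl was at -0.36 (standard error 0.31, adjusted p = 1), the groups overlapped, and the 95% interval of the difference ran from -1.09 to 0.37. The genotype difference in starved minus that in proliferating cells was 0.74 (standard error 0.44, adjusted p = 1.00), a comparison in which limma called 0 features and 158 (1.55%) had an unadjusted p under 0.05.

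Apod and the brighter Pltp probe did not separate the genotypes in the same direction in both clones. This Pltp probe was at -0.07 in proliferating cells, with a 95% interval from -0.56 to 0.42 (limma, adjusted p = 0.999), and at 0.12 in starved cells, with an interval from -0.37 to 0.61 (adjusted p = 1). The sign of the former turned to 0.14 with median scaling. The dimmer Pltp probe differed from it: in proliferating cells it was at 5.98 and 6.25 in E2F3 L430Q clones 2 and 4, below 6.44 and 6.68 in WT clones 1 and 16. With the mean of both probes the difference was -0.26, and in starved cells the dimmer probe overlapped, at 7.97 and 8.40 against 8.15 and 8.06. Apod was 2.40-fold above the WT mean in proliferating clone 2 and 1.57-fold below it in clone 4, and in starved cells 1.16-fold above and 2.39-fold below it in the same clones. The clones thus kept their order in both conditions, with mean log2 differences of 0.30 and -0.52.

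**Figure D3:**
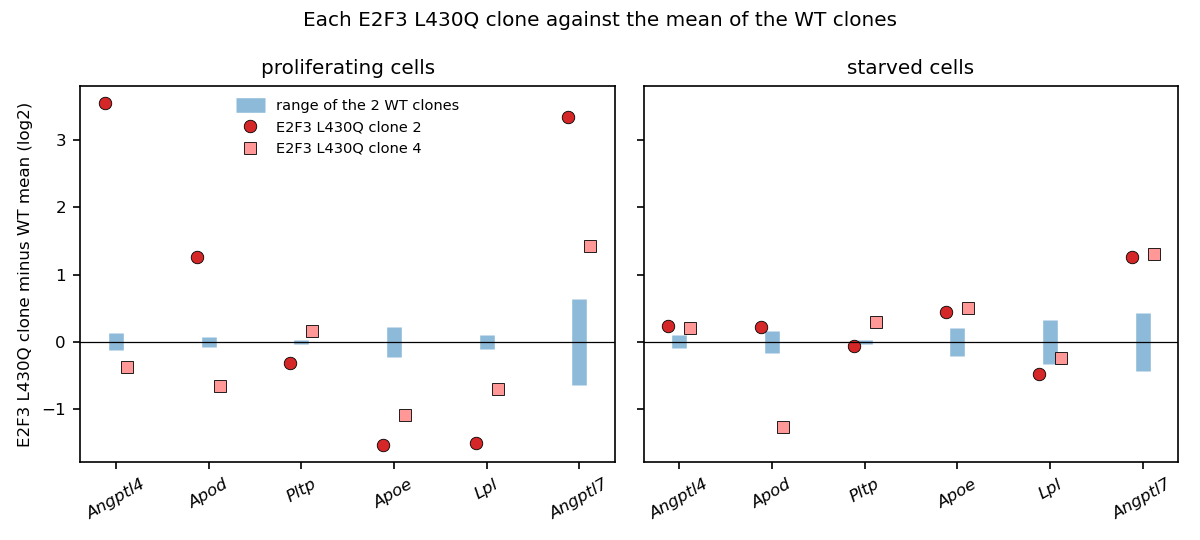
Each marker gives the log2 signal of an E2F3 L430Q clone minus the mean of the 2 WT clones (y axis) for the 6 genes (x axis), in proliferating cells on the left and starved cells on the right, with blue bars for the range of the WT clones. In proliferating cells clone 2 reached 3.55 for Angptl4 and 3.35 for Angptl7, and in starved cells both were closer to WT, at 0.24 and 1.26.

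Across the 8 arrays the members fell into patterns that are described here by Pearson's r, over arrays that share clones and conditions. Angptl4 and Apod ran together (r = 0.93), as did Apod and Pltp (r = 0.89) and Apoe and Pltp (r = 0.80). Angptl4, Apod and Apoe were picked for large changes on these arrays, and a shared step between the conditions alone gives a high r. How many other features reach such r was not counted. Lpl and Angptl7 were mirror images (r = -0.97): the array with the most Angptl7, proliferating clone 2, had the least Lpl, and starved WT clone 16 had the least Angptl7 and the most Lpl. Angptl4 and Lpl, inhibitor and enzyme, had r = 0.11 over the 8 arrays, a value that pools the conditions. Among the proliferating arrays, clone 2 had the most Angptl4 (11.19) and the least Lpl (8.20). Starved minus proliferating, both had a positive mean log2 difference (3.96 and 0.57). The low r is therefore no sign that the 2 genes were unrelated within a condition.

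Among the 1323 features with an SD of 0.5 or more over the arrays, those with the highest r to each member were as follows. For Angptl4 they were Lbp, which binds bacterial lipopolysaccharide, the autophagy modulator Dram1 and the interferon-induced Ifitm3 (r = 0.995, 0.993 and 0.992). For Apod they were the peptide transporter Tap2, Car11 and the synaptic adhesion gene Nlgn2 (r = 0.992, 0.989 and 0.987), and for Pltp they were Tulp2, Dipk1b and the matrix gene Spon2 (r = 0.995 each). The matches of the other members were looser. Apoe was nearest to the copper transporter gene Slc31a2, Dpysl4 and C1qtnf2 (r = 0.913, 0.906 and 0.896), Lpl to Plac9a, Klhl7 and the microfibril gene Mfap5 (r = 0.936, 0.894 and 0.890), and Angptl7 to the secretory kinase Fam20c, Nrn1 and Rgs3 (r = 0.958, 0.938 and 0.898).

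Of 12 measured genes that act on lipoprotein lipase or encode other lipases, 1 rose and 2 fell with starvation. Limma called 11.0% of all features higher and 11.5% lower. The median log2 difference was -0.01 beside 0.00 over all features. Lipa, the lysosomal acid lipase, rose by 1.29 (standard error 0.19, adjusted p = 0.00499). The heparan sulfate proteoglycan Hspg2 fell by 0.83 (adjusted p = 0.00602) and the monoglyceride lipase Mgll fell by 0.49 (adjusted p = 0.0334). Lmf1, which lipases need for folding, was at 0.12 (adjusted p = 0.644), Furin, a protease that cleaves lipoprotein lipase and angiopoietin-like proteins, at -0.31 (adjusted p = 0.140) and the lipase cofactor Apoc2 at 0.14 (adjusted p = 0.532). Gpihbp1, which carries lipoprotein lipase to the capillary lumen, was detected on 0 of 8 arrays.

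Among the angiopoietins, relatives of the angiopoietin-like factors, and their receptors, 2 of 9 measured genes rose and 5 fell, with a median of -0.87. The shares of all features were 11.0% and 11.5%. Tek, the angiopoietin receptor, rose by 1.73 (standard error 0.19, adjusted p = 0.00204) and its ligand Angpt1, not above background on 1 proliferating array, by 0.83 (adjusted p = 0.0304), while Angpt2, the ligand that often opposes Angpt1, fell by 1.13 (adjusted p = 0.0113). The integrins Itgav, Itgb1 and Itga5 fell by 1.02, 0.87 and 1.07 (adjusted p = 0.00296, 0.00974 and 0.0187), and Angpt4, above background on 4 of 4 proliferating and 0 of 4 starved arrays, was at least 1.28-fold lower (adjusted p = 0.00837). Angptl1 was at -0.87 (adjusted p = 0.340). Angpt2 was also at -0.72 in proliferating and -0.91 in starved E2F3 L430Q against WT cells (unadjusted p = 0.0475 and 0.0187, adjusted p = 0.999 and 1).

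Of 13 other apolipoproteins, lipocalins and related lipid-binding genes, not all of them for secreted proteins, 4 rose and 1 fell with starvation (11.0% and 11.5% of all features). The median was 0.26. The acute-phase genes Saa3, Lcn2 and Lbp rose (adjusted p = 0.0310, 0.0424 and 0.0136), with array values in place of a mean difference because Lcn2 was not above background on 3, Saa3 on 2 and Lbp on 1 of the 4 proliferating arrays. The chaperone apolipoprotein Clu rose by 1.81 (adjusted p = 0.0241), and the retinoic acid carrier Crabp2 fell by 1.06 (adjusted p = 0.0442). The 4 that rose shared the array pattern of Angptl4. Lcn2 was at 4.45, 4.62 and 4.32 in proliferating WT clones 1 and 16 and E2F3 L430Q clone 4, not above background on any of them, at 14.30 in proliferating clone 2, and between 13.30 and 14.09 on the starved arrays. Saa3 was at 4.78, 4.67, 4.63 and 13.74 on the proliferating arrays in the same order, and between 13.36 and 14.00 on the starved ones. Lbp was at 4.53, 5.04, 4.75 and 7.75 on the proliferating arrays and between 8.25 and 8.71 on the starved ones. Proliferating clone 2 was thus near the level of starved cells for Lcn2 and Saa3. Within clone 2, Lcn2 went from 14.30 proliferating down to 14.09 starved and Saa3 from 13.74 to 14.00. The mean rises of these genes therefore came from the other clones.

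**Figure D4:**
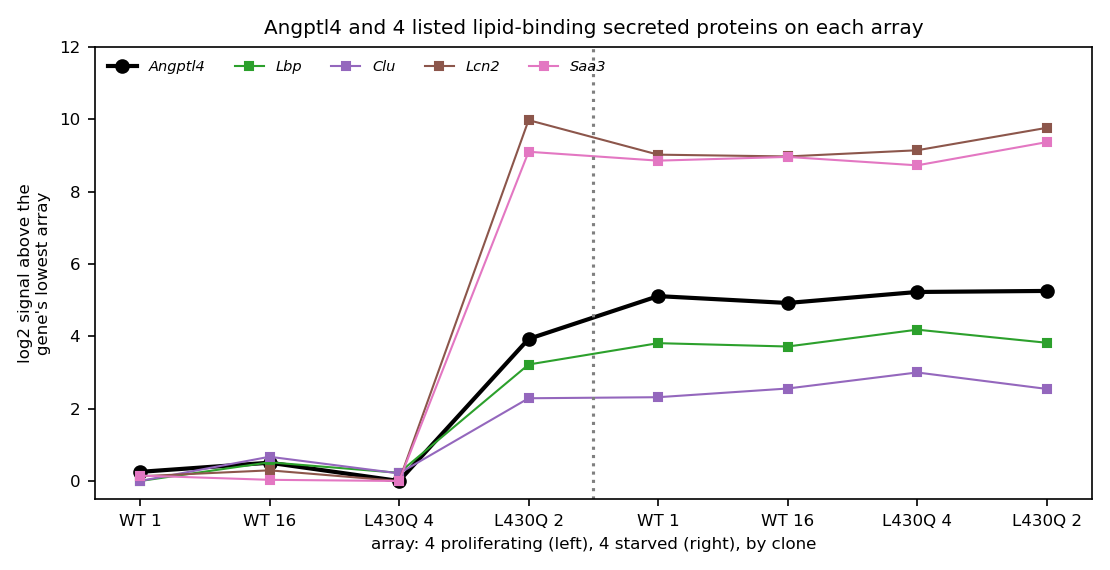
The lines give the log2 signal of Angptl4 and of Lbp, Clu, Lcn2 and Saa3 above each gene's own lowest array (y axis) on the 8 arrays (x axis, proliferating left and starved right of the dotted line). On the fourth array, proliferating E2F3 L430Q clone 2, all 5 genes lay well above the other proliferating arrays, and Lcn2 was higher than on any starved array. Lcn2 was not above background on the other 3 proliferating arrays.

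Of 13 measured lipoprotein receptors and their partners, 2 rose and 3 fell with starvation (11.0% and 11.5% of all features). The median was 0.00. The receptor chaperone Lrpap1 rose by 0.70 (adjusted p = 0.00522) and Lrp12 by 0.60 (adjusted p = 0.00874). The very low density lipoprotein receptor Vldlr, which binds Apoe and Lpl, fell by 0.74 (adjusted p = 0.0471), the scavenger receptor Stab1, above background on only 1 of 4 starved arrays, by 1.13 (adjusted p = 0.0357) and Sorcs2 by 0.68 (adjusted p = 0.0456). Lrp1, another Apoe receptor, was at 0.00 (standard error 0.17, adjusted p = 0.994). Stab1 and the sorting receptor Sort1 were at -1.18 and -0.46 in proliferating E2F3 L430Q against WT cells (unadjusted p = 0.0270 and 0.0357, adjusted p = 0.999 each). Lrp8 has no probe under that symbol in the annotation used and was not analysed here.

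Of 15 measured genes of cholesterol efflux and the LXR receptors, which induce Apoe, Pltp and Lpl in other cells, 3 rose and 2 fell. Their median was 0.24, and of all features 11.0% rose and 11.5% fell. Nr1h3, which encodes LXR alpha, rose by 1.25 (adjusted p = 0.0268), the oxysterol hydroxylase Cyp7b1 by 2.36 (adjusted p = 0.0223) and the LXR partner Rxrb by 0.49 (adjusted p = 0.0284). The desaturase Scd1, a lipogenic LXR target, fell by 1.75 (adjusted p = 0.00364) and Osbpl3 fell by 1.43 (adjusted p = 0.0196). The cholesterol exporter Abcg1 was detected on 2 arrays, those of starved WT cells, and Abca1 on 0 of 8. Pltp, also an LXR target, was higher after starvation, while Scd1 was lower. The part of LXR in the Pltp, Apoe and Lpl values was not tested.

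Of 18 measured PPAR receptors and targets, 2 rose and 1 fell (11.0% and 11.5% of all features), with a median of 0.05. Pdk4, the kinase that restrains glucose oxidation, rose by 1.03 (adjusted p = 0.0180) and the mitochondrial dehydrogenase Acadvl by 0.70 (adjusted p = 0.0220). The fatty acid binding protein Fabp3 fell by 2.13 (standard error 0.16, adjusted p = 0.000693). The lipid droplet coat gene Plin2, a PPAR target like Angptl4, was at 0.01 (adjusted p = 0.982), Pparg at -0.44 (adjusted p = 0.411), and Ppard was detected on 0 of 8 arrays.

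In the hypoxia list 2 of 22 measured genes rose with starvation and 0 fell (11.0% and 11.5% of all features), with a median of -0.08. At an unadjusted p under 0.05 in limma 1 was lower, as 18.6% of all features were. The collagen hydroxylase P4ha1 rose by 0.90 (adjusted p = 0.00729) and Ndrg1 by 1.19 (adjusted p = 0.0121), while the glycolytic Aldoc, above background on 2 of 4 starved arrays, was at -1.28 (adjusted p = 0.0909). Of 14 measured FOXO targets and quiescence genes, 5 rose and 1 fell (11.0% and 11.5% of all features), with a median of 0.24. The receptor ligand Gas6 and the growth factor receptor Pdgfra, both known to be high in growth-arrested fibroblasts, rose by 1.19 and 1.68 (adjusted p = 0.00192 and 0.00499), Bcl6, Trp53inp1 and Ccng2 by 0.70, 0.55 and 0.52 (adjusted p = 0.00602, 0.0126 and 0.0200), and Klf9 fell by 0.75 (adjusted p = 0.0106).

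Between genotypes, limma called 0 of the 116 genes of these lists in either condition. At an unadjusted p under 0.05, 5 were higher and 4 lower in proliferating E2F3 L430Q cells, where 2.82% of all features had such a p, and 1 was higher and 4 lower in starved cells, where 2.19% had. In proliferating cells 20 of the 22 hypoxia genes had a positive log2 difference, with a median of 0.60 beside -0.03 over all features, and 5 were higher at an unadjusted p under 0.05, where 1.13% of all features were. The 5 were Ddit4, Ndrg1, Kdm3a and Fam162a, at 0.66, 0.76, 0.65 and 0.92, and Car9, above background in clone 2 but not in WT or clone 4 and at least 1.35-fold higher (adjusted p = 0.999 each). In clone 2 they lay 1.01 to 1.60 above the WT mean, and in clone 4 from 0.20 to 0.31 above it. In starved cells the hypoxia median was 0.00 and those of the other lists ran from -0.06 to 0.14.

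For each list, the 2 genes with the smallest p between genotypes are given as values where not already named. None passed after adjustment (limma, adjusted p of 0.999 in proliferating and 1 in starved cells). In proliferating E2F3 L430Q against WT cells, Sel1l and Hspg2 were at -0.27 and -0.15, Itgb1 at -0.54, Cyp7b1 and Osbpl3 at 1.71 and 0.96, the triglyceride-forming enzyme Dgat2 at 1.26, Pparg at -0.82, and Klf9 and Gas6 at -0.41 and -0.33. Apol9b was at 1.63, and Saa3 had the array values given above. Of these, Apol9b, Cyp7b1, Osbpl3, Dgat2 and Pparg differed mainly in clone 2, at 3.04, 3.07, 1.76, 2.31 and -1.45 against the WT mean, and were at 0.21, 0.35, 0.16, 0.21 and -0.19 in clone 4. In starved cells the lactonase Pon3 was at 0.52, Apoc2 at -0.42, Angpt1 at 0.50, Vldlr at -0.32, Lrp10 at -0.10, the cholesteryl ester hydrolase Nceh1 at -0.29, Fabp3 at 0.27 and Acadvl at 0.22. Klf9 and Irs2 were at -0.52 and -0.37, and the hypoxia genes Pfkfb4 and Mxi1 at -0.15 and -0.20, the latter above background on 1 array of each genotype. Among the starved arrays, the high density lipoprotein component Apom and Abcg1 were above background in WT only, and at least 1.06- and 1.04-fold lower in E2F3 L430Q, while Lmf2 was above background in E2F3 L430Q only, and at least 1.11-fold higher. Klf9 and Angpt2 had the same sign in both conditions, and so had many other list genes, such as Irs2, Angpt1, Nceh1, Sel1l and Cyp7b1.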

How the data were processed

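RNA of 4 MEF clones was measured on 8 Illumina bead arrays, and groups were taken from the sample labels. The authors deposited an intensity for each probe and array, with no background correction or normalization visible, and a detection p-value against negative control beads. The paper's methods name GenomeStudio, with settings not given in the sources used here. The authors also deposited processed intensity values (column medians of 8.4 to 8.5, lowest value -14.4), whose scale and direction follow the scanner values and whose centring settings are unknown. They served as an alternative, after an offset of 16 and log2.

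The platform annotation named 1 gene for 23978 of 25697 probes, several for 0 and none for 1719, and 23962 were in the RefSeq gene table. Detection at a p-value under 0.05 on 2 or more arrays was required, which left 13666 probes, and the brightest probe of each gene gave 10214 features, 9430 of them named. Intensities were normalized with neqc (offset 16) in limma 3.58.1 under R 4.3.3. Quantile normalization makes every array's distribution equal, so differences are relative to all features. A model of the 4 groups (lmFit, eBayes, 4 residual and 3.28 prior degrees of freedom) gave the starved minus proliferating difference averaged over genotypes, the E2F3 L430Q minus WT difference in each condition, and their difference. P-values were adjusted by Benjamini-Hochberg over all 10214 features and called under 0.05. Where no array of a group was above background, the fold is a bound, taken against the higher of the probe's signal and the lowest detected signal on each array. The code was tested on 3 simulated sets with 200 changed genes each.

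The members and the gene lists were chosen with earlier results of these data known. Genes named are the members, the 3 features most like each, the genes known to act on them, and list genes past the threshold or with the smallest p. The labels give the same clone in both conditions, which pairs the arrays. Deviations of a clone's arrays from the group means correlated across features at 0.0908 for WT and 0.292 for E2F3 L430Q. Promoters were read from the RefSeq table of build GRCm38.p6, and motifs were searched as plain letters with Python 3. Alternatives were other background corrections, scalings, filters, probe rules and variance models, the clone as a fixed or random block, single conditions, the methods' t-test, and each array left out. Leaving out E2F3 L430Q clone 2 was added after seeing the data. Figures were drawn with matplotlib 3.10.9.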

Additional observations from a re-analysis of the deposited data

Results flagged for a closer look

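The genotype difference of Apoe had opposite signs in the 2 serum conditions, with every E2F3 L430Q array on 1 side of every WT array in each. It was -1.31 on the log2 scale in proliferating cells and 0.47 in starved cells. The difference between them, 1.78, ranked 5 of 10214 features and was not tested, because Apoe had been picked for its change on these arrays. The rank follows in part from that choice and lends the pattern no support. The flag for opposite signs was applied only to the picked members, not to Lpl and Pltp. It was 0.94 with no background correction and 1.22 with normexp and an offset of 50, with both signs kept.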

How the results depend on the processing

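Under alternatives planned or added, 25 log2 differences of Angptl4, Angptl7, Apod and Apoe moved by more than 1 SD. That rule was not applied to Lpl and Pltp, of whose differences 3 passed the threshold where they had not. Among all members 13 differences changed sign, 4 each of Angptl4 and Apod and 5 of Pltp. All of these were genotype differences or their interaction with serum. Without proliferating clone 2, Angptl4 turned to -0.38 and Apod to -0.65, with interactions of 0.60 and 0.13, and without starved clone 4 Apod turned to 0.21. For Angptl4 the interaction was 0.59 without clone 2 altogether. For Pltp the values were 0.14 in proliferating cells with median scaling, 0.17 without clone 2, and, with single arrays left out, -0.31 to 0.17 in proliferating cells, -0.068 to 0.30 in starved cells and -0.052 to 0.43 for the interaction. With the clone as a block (the replicate block), the Lpl difference with serum of 0.57 passed. The block changed the call of no other tested member. Leaving out single arrays gave 0.38 to 0.77 for Lpl, the latter with adjusted p = 0.0183 without proliferating clone 4, and 1.61 to 1.85 for Pltp. Over all alternatives that kept every array, the adjusted p of Pltp ran from 0.000549 to 0.00268 and that of Lpl from 0.0477 to 0.341. Counts of features called ran from 942 (without starved WT clone 16) to 3077 (without proliferating E2F3 L430Q clone 4) for serum, from 0 to 408 for the genotype in proliferating cells and from 0 to 150 for the interaction, both highest without proliferating E2F3 L430Q clone 4, and were 0 throughout in starved cells, where the methods' t-test called 1. The cause was not tested. The t-test was not run for the interaction. With no background correction the Apoe difference with serum was 0.72 in place of 1.30 and the proliferating genotype difference of Angptl7 1.41 in place of 2.38.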
